A study of Mus musculus with 6 samples.

Results

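Photoreceptors release glutamate from terminals that are built around a synaptic ribbon, and the transcripts of 30 genes for these terminals were followed in mouse retinas with and without the co-repressors Panky and Panky-like. The 30 symbols were chosen by function, as genes of the ribbon and active zone, the Cav1.4 calcium channel complex, synaptic vesicles, the fusion machinery and the contacts across the cleft. All 30 are among the 24346 symbols measured, and all 30 are among the 14325 genes that entered the test, with mean levels from 10.7 to 673 FPKM. FPKM counts fragments relative to transcript length and to the size of the library, so that genes of different length can be set side by side.

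The triple-deficient group held 3 retinal libraries of the genotype Panky-/-;Panky-like-/-;Nrl-/-, and the control group 3 libraries of Panky+/-;Panky-like+/-;Nrl-/-, all at postnatal day 12. Both genotypes are labelled Nrl-/-, and in mice without Nrl the photoreceptors that would become rods take on a cone-like state. The controls were heterozygous for both Panky genes, so neither group is wild type. Panky is Ankrd33, known as a co-repressor of CRX, the homeodomain activator of photoreceptor genes. Panky-like is taken to be its paralog Ankrd33b, which the labels do not state. The labels give no number of animals per library, so the p-values cover the spread between these libraries, which may in part be technical.

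A ribbon is a protein sheet that holds glutamate vesicles beside the calcium channels of the active zone, and its main constituent, RIBEYE, is a product of the Ctbp2 gene. In darkness, calcium enters steadily through the Cav1.4 channel and drives continuous release, onto bipolar and horizontal cell processes that reach into the terminal. Terminals of this kind use particular paralogs, such as Stx3 among the syntaxins, and bipolar cells have ribbons too. Adhesion proteins on the photoreceptor side, among them pikachurin and the ELFN and LRIT proteins, hold the receptors of the bipolar dendrites in register.

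None of the 30 ribbon synapse genes passed the test for a difference between the genotypes. At a limma adjusted p below 0.05, adjusted over all genes tested, 0 of 30 passed, against a background of 0.0279% of all genes (0.00698% higher and 0.0209% lower). At an unadjusted p below 0.05 there was 1 of 30, Elfn2, against a background of 5.09% of all genes. Changes, given throughout as the mean log2(FPKM + 1) of triple-deficient libraries minus that of controls, ran from -0.20 for Elfn2 to 0.14 for Cabp4. Their median was 0.01, beside 0.003 over all genes tested, with 18 above 0 and 12 below. The 95% confidence interval lay between -0.32 and 0.32 for 28 of the 30 genes, against a background of 79.5% of all genes. Elfn1 and Elfn2 were the 2 exceptions, with lower limits of -0.35 and -0.36. The 30 genes had a median level of 56.7 FPKM, beside 11.7 FPKM over all genes tested, so the 2 shares come from unlike levels. For 66 other presynaptic genes, described below, the share was 95.5% at a median of 34.7 FPKM. The libraries are of whole retina, so fewer terminals and less RNA in each could not be told apart.

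**Figure D1:**
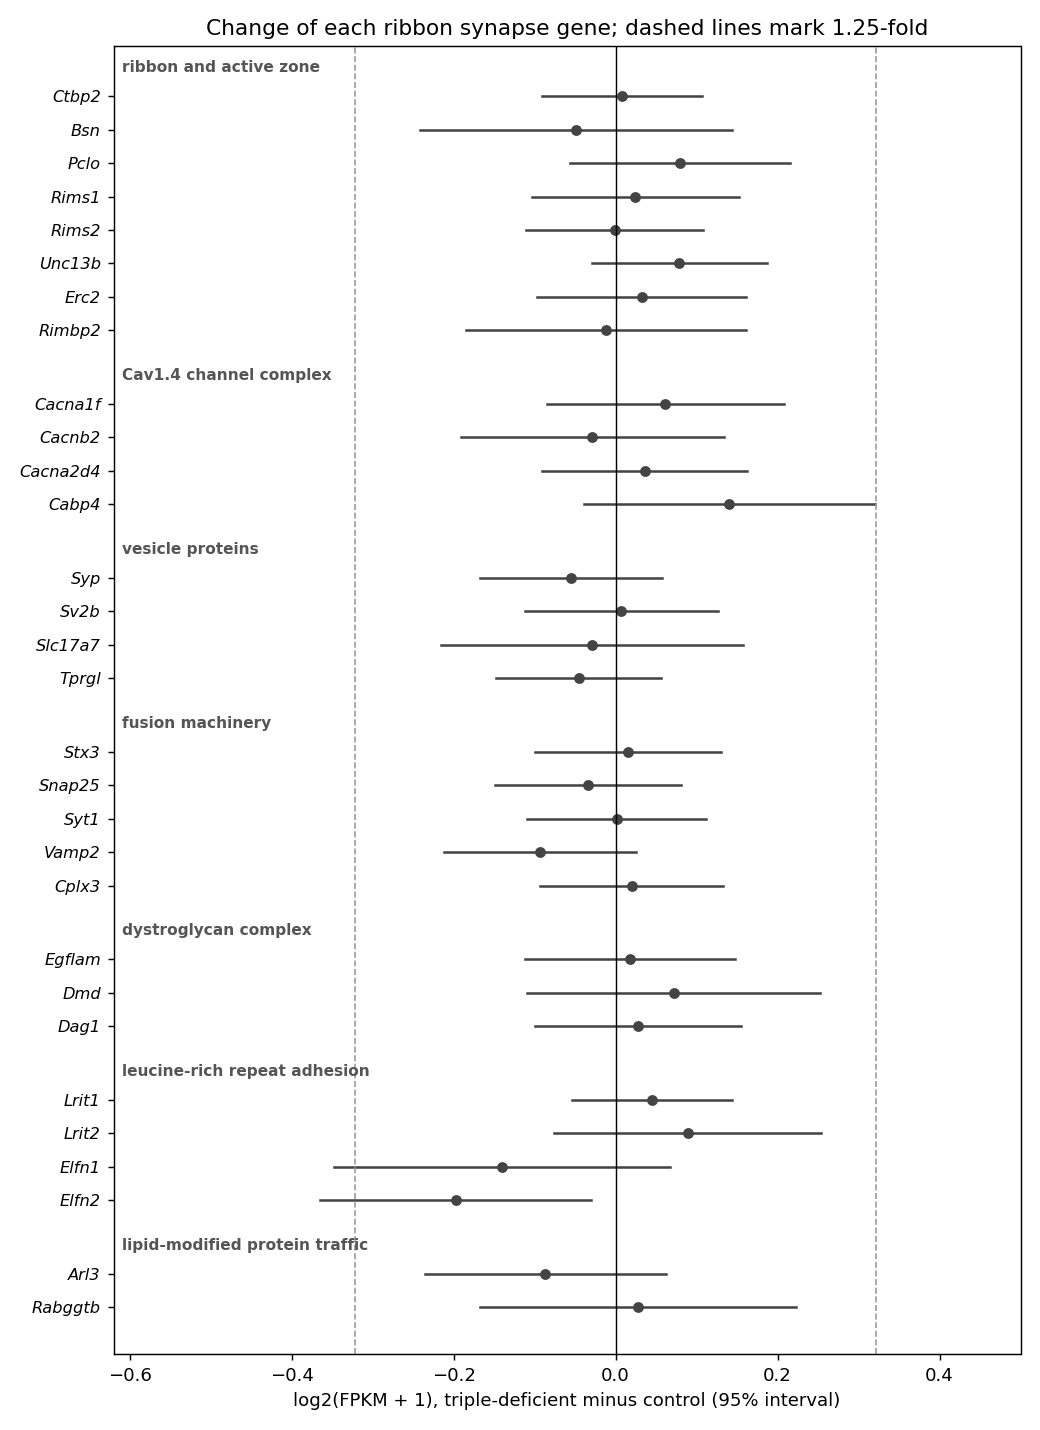
Difference in mean log2(FPKM + 1), triple-deficient libraries less controls, for each of the 30 ribbon synapse genes (points), with 95% intervals from limma (lines, 3 libraries per group), grouped by role. Only the intervals of Elfn1 and Elfn2 reach beyond the dashed lines, drawn at -0.32 and 0.32, and that of Elfn2 (-0.36 to -0.03) is the only one that does not include 0.

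Both targeted genes fell. Ankrd33b stood at 1.80, 1.31 and 1.39 FPKM in triple-deficient libraries 1, 2 and 3, against 35.4, 32.6 and 33.4 FPKM in control libraries 1, 2 and 3 (limma adjusted p = 4.56e-07). Ankrd33 stood at 56.6, 59.6 and 50.5 FPKM in triple-deficient libraries, against 105, 104 and 109.7 FPKM in controls (limma adjusted p = 0.00274). The labels do not give the deleted part of either gene. Estimated depth was 18.2 M (triple-deficient 3) to 27.3 M fragments (triple-deficient 1) in triple-deficient and 22.6 to 24.99 M in control libraries. The cone opsin Opn1sw was at 1406 to 1565 FPKM in triple-deficient and 1503 to 1568 FPKM in control libraries. Summed cone markers, 12 of 12 of them above 1 FPKM, came to 6012 to 6611 FPKM in triple-deficient and 6466 to 6605 FPKM in control libraries. Rod markers, 9 of 12 of them above 1 FPKM, came to 2524 to 2639 FPKM in triple-deficient and 2538 to 2576 FPKM in control libraries, most of it Sag and Pde6g, while Gnat1 and Cnga1 stayed below 1 FPKM in every library. Transcript of Nrl itself was still counted, at 52.6, 51.3 and 53.7 FPKM in triple-deficient libraries, against 49.2, 38.3 and 45.01 FPKM in controls; the labels do not give the deleted part, so its level is no check of the Nrl genotype. Nrl, Pde6a and Nr2e3 were the 3 of 12 rod markers whose groups did not overlap, all higher in triple-deficient libraries. Over all genes, 4.86% were higher and 5.64% lower without overlap. Among cone markers Thrb was higher and Pde6h lower without overlap. Slc17a6 of the ganglion cell list was higher, while Tfap2c of the amacrine list and Ttr, Pmel and Tyrp1 of pigment epithelium were lower. No marker that entered the limma test passed it. Of the rod list 10 of 12 entered it, of the pigment epithelium list 6 of 9, and of the other lists all. Bipolar cell markers, 13 of 13 above 1 FPKM, summed to 1243 to 1302 FPKM in triple-deficient and 1227 to 1249 FPKM in control libraries. Amacrine markers, 12 of 12 above 1 FPKM, summed to 647 to 662 and 641 to 677 FPKM in the same order of groups. Summed markers did not overlap between groups for Müller glia (9 of 9 above 1 FPKM), at 1810 to 1946 FPKM in triple-deficient and 1993 to 2040 FPKM in control libraries, or for horizontal cells (7 of 7), at 148 to 151 and 153 to 156 FPKM. In each list 1 marker was lower without overlap, Apoe and Sept4. The sums of the others overlapped, at 1374 to 1428 FPKM in triple-deficient and 1366 to 1471 FPKM in control libraries for Müller glia. For horizontal cells they were 35.4 to 37.6 and 36.5 to 37.3 FPKM in the same order of groups. Onecut2 of the horizontal list was higher without overlap, at 1.71 to 1.98 FPKM in triple-deficient and 1.49 to 1.57 FPKM in control libraries. The part of these markers in the synaptic values was not tested. Many of the 30 genes, Snap25 and Syt1 among them, are also used at the synapses of those cells.

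The ribbon and its active zone are represented by 8 genes. Ctbp2 stood at 109.6, 110.4 and 112 FPKM in triple-deficient libraries 1, 2 and 3, against 113, 107 and 110.4 FPKM in control libraries 1, 2 and 3. The 6 values lie in 1 narrow band, with a change of 0.01 (95% interval -0.09 to 0.11, limma adjusted p = 0.993). The gene on chromosome 7 (132986998 to 133124009, GRCm38, minus strand) has a distal start for CtBP2, a co-repressor of many tissues, and an internal start for RIBEYE. In GENCODE M21 the coding transcript from 133123367 encodes 445 amino acids and that from 133015248 encodes 988. The table has 1 value for the gene, so these data do not separate RIBEYE from CtBP2.

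CRX and related homeodomain factors bind the sequence TAATCC, and the promoters of the ribbon synapse genes were searched for it because Panky is known as a repressor of CRX-driven transcription. RefSeq promoters for GRCm38.p6 were found for 25 of the 30 genes. In the 250 bases before a start, TAATCC or its reverse complement GGATTA occurs in 5 of these 25 genes, which are Ctbp2, Lrit1, Lrit2, Sv2b and Syp. It occurs in 1949 of all 27025 genes with a promoter in the table (7.21%). Counted by promoter, it occurs in 7 of the 36 promoters of the 25 genes (19.4%) and in 6.25% of all 32851 promoters of that length. The number of promoters per gene was not matched between the 25 genes and all genes. The changes of these 5 genes had a median of 0.008, and those of the other 20 a median of 0.02. The sequences of 4 of them follow, since these matches lie within 150 bases of an annotated start, with the motif in capitals.
Ctbp2 internal start, chr7:133015248-133015497, minus strand: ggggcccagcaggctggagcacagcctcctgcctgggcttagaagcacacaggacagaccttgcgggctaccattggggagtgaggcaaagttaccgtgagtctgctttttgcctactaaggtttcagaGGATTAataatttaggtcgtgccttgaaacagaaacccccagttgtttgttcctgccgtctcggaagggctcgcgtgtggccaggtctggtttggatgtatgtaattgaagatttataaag
Lrit1, chr14:37054580-37054829, plus strand: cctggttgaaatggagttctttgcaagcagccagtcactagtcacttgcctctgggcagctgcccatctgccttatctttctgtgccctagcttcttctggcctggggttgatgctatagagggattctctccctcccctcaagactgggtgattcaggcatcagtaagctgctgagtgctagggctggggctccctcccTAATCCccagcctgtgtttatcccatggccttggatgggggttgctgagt
Lrit2, chr14:37067779-37068028, plus strand: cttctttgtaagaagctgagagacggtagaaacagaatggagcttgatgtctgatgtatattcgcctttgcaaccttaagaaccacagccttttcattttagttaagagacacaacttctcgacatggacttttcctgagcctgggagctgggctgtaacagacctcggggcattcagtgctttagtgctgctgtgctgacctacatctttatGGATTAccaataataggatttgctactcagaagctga
Sv2b, chr7:75309263-75309512, minus strand: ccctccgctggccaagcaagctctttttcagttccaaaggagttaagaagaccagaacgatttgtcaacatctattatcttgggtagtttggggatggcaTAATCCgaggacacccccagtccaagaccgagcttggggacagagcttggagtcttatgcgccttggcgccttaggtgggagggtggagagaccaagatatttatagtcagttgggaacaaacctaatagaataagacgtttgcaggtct

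In Ctbp2 the match begins 121 bases before the internal start, and the other RefSeq promoter of the gene, whose start is at 133081860, holds none. Neither window lies at 133123367, where the coding transcript of 445 amino acids begins, so that start of CtBP2 was not searched. The matches of Lrit1 and Lrit2 begin 50 and 37 bases before their starts, that of Sv2b 150 bases before and that of Syp 246 bases before. A second start of Sv2b, at 75302609, has a match 91 bases before it, and a second Lrit2 window holds the same site. A match of these letters describes the sequence and does not show that CRX binds there.

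Bassoon and piccolo, the large scaffolds that anchor the ribbon and organise the active zone, are encoded by Bsn and Pclo. Bsn stood at 15.9, 14.2 and 12.6 FPKM in triple-deficient libraries and 15.4, 14.8 and 13.9 FPKM in controls, with triple-deficient 3 the lowest of all. Pclo stood at 22.1, 20.6 and 21.5 FPKM in triple-deficient libraries and 21.2, 20.8 and 18.7 FPKM in controls, with control 3 the lowest. Rims1 and Rims2 encode scaffolds that bind calcium channels and vesicles. They averaged 36.1 ± 0.821 and 38.6 ± 0.941 FPKM in triple-deficient libraries, and 35.5 ± 2.28 and 38.7 ± 1.52 FPKM in controls (SD, n = 3). Erc2, an ELKS family scaffold, and Rimbp2, a linker between RIM and calcium channels, were the lowest of the 30 genes. They averaged 12.4 ± 0.710 and 10.6 ± 0.178 FPKM in triple-deficient libraries, and 12.1 ± 0.116 and 10.8 ± 1.16 FPKM in controls.

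Unc13b encodes a Munc13 protein, which primes vesicles for fusion. It stood at 64.1, 61.8 and 64.2 FPKM in triple-deficient libraries 1, 2 and 3, against 61.96, 60.7 and 57.2 FPKM in control libraries 1, 2 and 3. Triple-deficient 1 and 3 are the highest of the 6, and triple-deficient 2 lies just under control 1, so the groups overlap. The change of 0.08 (95% interval -0.03 to 0.19) did not pass (limma adjusted p = 0.946). Over the 8 genes of the ribbon and active zone, changes ran from -0.05 to 0.08 and none of the groups separated.

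**Figure D2:**
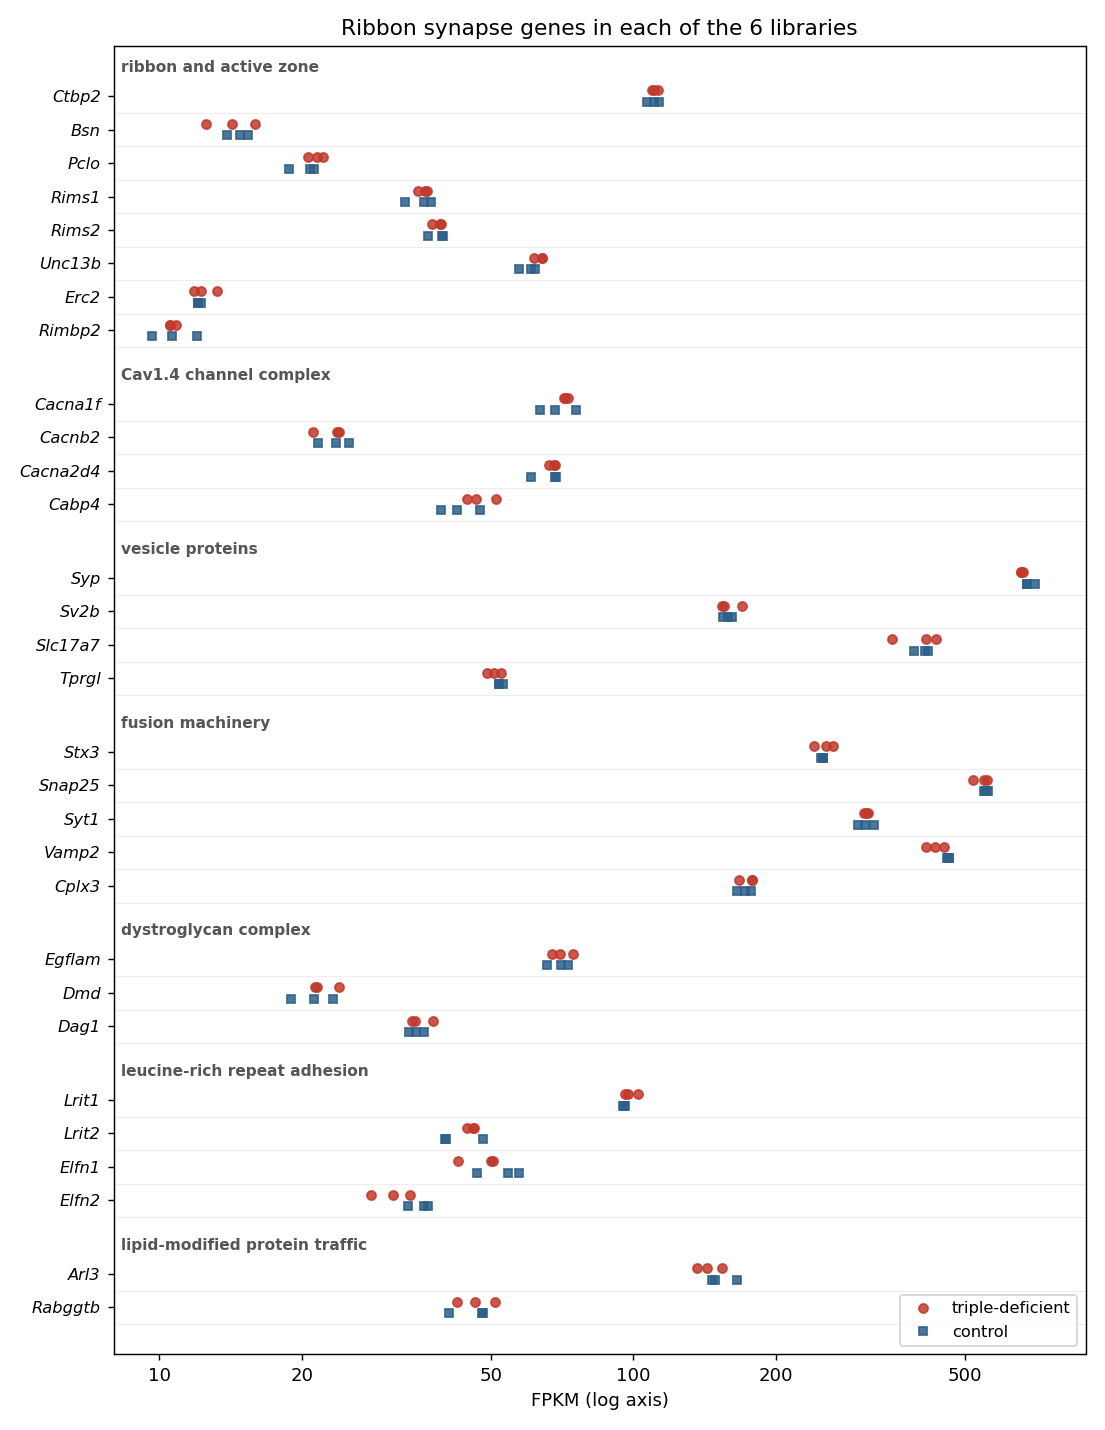
FPKM on a log axis of the 30 ribbon synapse genes in each library, with triple-deficient libraries as circles above and control libraries as squares below, grouped by role. Levels span from 10.7 FPKM for Rimbp2 to 673 FPKM for Syp as means of 6 libraries, and the groups are apart only for Syp, Vamp2 and, by a small margin, Lrit1.

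The Cav1.4 complex supplies the calcium that drives release, and none of its 4 genes passed the test. Cacna1f, the pore subunit, stood at 71.9, 72.8 and 71.5 FPKM in triple-deficient libraries 1, 2 and 3, against 68.4, 75.7 and 63.5 FPKM in control libraries 1, 2 and 3. The triple-deficient values are close together and lie inside the wider range of the controls. Cabp4, the calcium-binding protein that shifts the channel's opening to weaker depolarisation, stood at 46.6, 51.4 and 44.6 FPKM in triple-deficient libraries and 42.4, 47.4 and 39.3 FPKM in controls. Its change of 0.14 was the highest of the 30 (SE 0.078, 95% interval -0.04 to 0.32, limma adjusted p = 0.946). Cacna2d4, the alpha2delta subunit, stood at 67.9, 68.4 and 66.5 FPKM in triple-deficient libraries and 68.4, 68.6 and 60.9 FPKM in controls. Cacnb2, the beta subunit, stood at 21.1, 24.0 and 23.7 FPKM in triple-deficient libraries and 25.1, 23.6 and 21.6 FPKM in controls.

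Control 3 was the lowest of all 6 libraries for Cacna1f, Cacna2d4 and Cabp4, and the lowest of the controls for Cacnb2. Without control 3, the change of Cacna1f was 0.002 and that of Cabp4 0.08. Both kept their sign in 15 of 15 other settings, Cacna1f between 0.002 and 0.13 and Cabp4 between 0.08 and 0.21. For Cabp4 the limma unadjusted p was below 0.05 in 4 of them, and the adjusted p stayed at or above 0.609. Arr3, the cone arrestin, was also lowest in control 3, at 213 FPKM against 280 to 305 FPKM in triple-deficient libraries and 263 to 326 FPKM in the other 2 controls. It was the only 1 of 12 cone markers that was lowest there, and 5 of the 12, Opn1sw, Gngt2, Pde6h, Cngb3 and Rxrg, were highest in control 3. Of 12 rod markers, 4 were lowest in control 3, Pde6a, Cngb1, Nr2e3 and Sag, and 0 were highest there. Among the ribbon synapse genes, 9 were lowest and 5 highest in control 3, and no other library was lowest for more of them. The part of this library in the values of the channel genes was not tested further.

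Vesicle proteins were among the most abundant transcripts of the set. Syp, which encodes synaptophysin and lies next to Cacna1f on the X chromosome (7638580 to 7653256, with Cacna1f at 7607103 to 7635196), stood at 666, 658 and 658 FPKM in triple-deficient libraries 1, 2 and 3. In control libraries 1, 2 and 3 it stood at 679, 676 and 704 FPKM. All triple-deficient values lie below all controls, but the change of -0.06 (95% interval -0.17 to 0.06) did not pass (limma adjusted p = 0.958). Groups that do not overlap were found for 3 of the 30 genes, 2 lower and 1 higher, against a background of 10.5% of all genes, 5.64% lower and 4.86% higher.

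Slc17a7 encodes VGLUT1, which fills vesicles with glutamate. It stood at 435, 416 and 352 FPKM in triple-deficient libraries 1, 2 and 3, against 390.3, 412 and 419 FPKM in control libraries 1, 2 and 3. Triple-deficient 1 is the highest and triple-deficient 3 the lowest of the 6, and the change was -0.03 (95% interval -0.22 to 0.16). Sv2b, a vesicle glycoprotein, stood at 154, 155 and 169 FPKM in triple-deficient libraries and 162, 159 and 155 FPKM in controls. Tprgl encodes mover, a vesicle-associated protein, and stood at 49.1 to 52.7 FPKM in triple-deficient libraries and 52.1 to 53.2 FPKM in controls. No vesicle gene passed the test.

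Fusion of the vesicle uses SNARE proteins, with synaptotagmin as calcium sensor and complexin as regulator. Vamp2, the vesicle SNARE, stood at 433, 453 and 414 FPKM in triple-deficient libraries 1, 2 and 3, against 463, 459 and 464 FPKM in control libraries 1, 2 and 3. The groups do not overlap, and the 3 controls lie close together. The change was -0.09 (SE 0.052, 95% interval -0.21 to 0.03, limma adjusted p = 0.946). Snap25, a SNARE of the plasma membrane, stood at 521, 557 and 549 FPKM in triple-deficient libraries and 555, 561 and 550.5 FPKM in controls. Stx3, the syntaxin of ribbon terminals, stood at 240.3, 255 and 264 FPKM in triple-deficient libraries and 251, 252 and 249 FPKM in controls. The controls of Stx3 lie between the triple-deficient values. Syt1, a synaptotagmin, averaged 309.9 ± 2.92 FPKM in triple-deficient and 309.8 ± 12.2 FPKM in control libraries (SD, n = 3). Cplx3, a complexin of retinal ribbon synapses, averaged 174 ± 6.34 FPKM in triple-deficient and 172 ± 5.82 FPKM in control libraries. The intervals of Stx3, Snap25, Syt1 and Cplx3 all lay between -0.15 and 0.13.

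**Figure D3:**
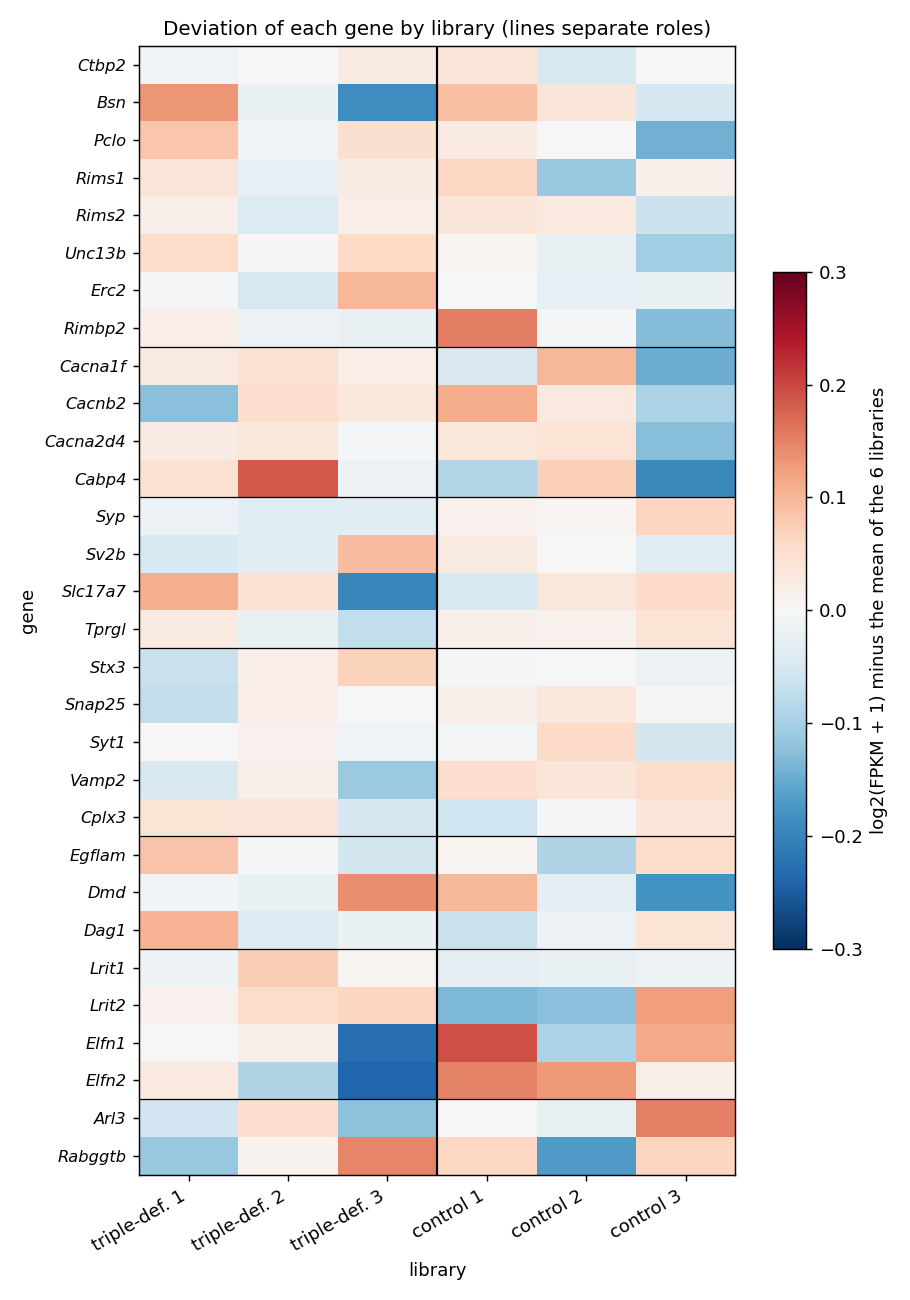
Deviation of each gene from its mean over 6 libraries, on the log2(FPKM + 1) scale, with libraries as columns (triple-deficient left of control) and genes as rows. Bsn, Slc17a7, Elfn1 and Elfn2 are lowest in triple-deficient 3, and Cacna1f, Cacna2d4, Cabp4 and Dmd are lowest in control 3.

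On the cleft side, dystroglycan links the terminal to its partners. Egflam encodes pikachurin, a matrix protein of the cleft that binds dystroglycan and the bipolar receptor GPR179. It stood at 74.5, 69.9 and 67.5 FPKM in triple-deficient libraries and 70.5, 65.9 and 72.9 FPKM in controls. Dag1, the gene of dystroglycan, stood at 37.9, 34.1 and 34.7 FPKM in triple-deficient libraries and 33.5, 34.7 and 36.2 FPKM in controls. Dmd, the dystrophin gene, of which retina uses several promoters, stood at 21.5, 21.3 and 23.9 FPKM in triple-deficient libraries and 23.2, 21.2 and 19.0 FPKM in controls. The groups overlap for all 3 genes, whose changes were 0.02, 0.03 and 0.07.

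The leucine-rich repeat proteins bridge the cleft, and their 4 genes include the lowest change of the set. Elfn1, which binds mGluR6 on ON bipolar dendrites and is needed for rod to bipolar synapses in mice, stood at 50.1, 50.7 and 42.6 FPKM in triple-deficient libraries 1, 2 and 3. In control libraries 1, 2 and 3 it stood at 57.4, 46.8 and 54.3 FPKM. Elfn2, its paralog at cone terminals, stood at 33.8, 31.0 and 27.9 FPKM in triple-deficient libraries, against 36.8, 36.2 and 33.5 FPKM in controls. Triple-deficient 1 lies just above control 3, so the groups of Elfn2 overlap. Its change was -0.20 (SE 0.073, 95% interval -0.36 to -0.03), with an unadjusted p of 0.0261 and a limma adjusted p of 0.893. The change of Elfn1 was -0.14 (SE 0.090, limma adjusted p = 0.946).

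Elfn2 kept its sign in 15 of 15 other settings, between -0.26 and -0.13. Its limma unadjusted p was below 0.05 in 11 of them, and its adjusted p stayed at or above 0.434 in all of them. Without triple-deficient 3 the changes of Elfn2 and Elfn1 were -0.13 and -0.06. Elfn2 lies on chromosome 15 (78667333 to 78718771, GRCm38), as do both targeted genes, 22.4 Mb from Ankrd33. Egflam and Rims2, on the same chromosome, lie 24.1 and 7.91 Mb from Ankrd33b, and their changes were 0.02 and -0.001.

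Lrit1 and Lrit2 are neighbours on chromosome 14, with the matches shown above. The starts that follow the 2 promoters shown, at 37054830 and 37068029, lie 13199 bases apart. The RefSeq gene models begin further upstream, at 37042475 for Lrit1 and 37064433 for Lrit2. Lrit1, which modulates transmission at photoreceptor terminals, stood at 96.1, 102 and 97.7 FPKM in triple-deficient libraries, against 95.1, 95.5 and 96.1 FPKM in controls. The groups do not overlap, but the lowest triple-deficient value, 96.14 FPKM, is only just above the highest control value, 96.08 FPKM. Lrit2 stood at 44.5, 45.8 and 46.1 FPKM in triple-deficient libraries, against 40.1, 40.3 and 48.1 FPKM in controls, where control 3 is the highest of all. The changes were 0.04 and 0.09 (limma adjusted p = 0.958 and 0.956), and without control 3 that of Lrit2 was 0.17 (unadjusted p = 0.00735, adjusted p = 0.825). RefSeq models of the 2 genes overlap from 37064433 to 37064938, and how fragments there were assigned is not given in the sources used here.

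Arl3 and Rabggtb serve proteins that carry lipid anchors. Arl3, a GTPase that releases lipid-modified cargo, stood at 143, 154 and 137 FPKM in triple-deficient libraries and 149, 146 and 165 FPKM in controls. Rabggtb, the beta subunit of the enzyme that adds geranylgeranyl groups to Rab proteins, stood at 42.4, 46.3 and 51.0 FPKM in triple-deficient libraries and 48.0, 40.7 and 48.1 FPKM in controls. Both overlap between groups, with changes of -0.09 and 0.03.

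Values went with base composition most clearly in 1 library. In triple-deficient 3, deviations from the mean of the 6 libraries were lower at higher transcript GC content, at Spearman -0.59 over all genes and -0.69 over the 30 ribbon synapse genes. In the other libraries the 30 genes gave -0.10 to 0.49. These are descriptions over genes that share a library. Of the 5 members with a GC content above 55% (Ctbp2, Bsn, Slc17a7, Elfn1 and Elfn2), 4 were lowest in triple-deficient 3. Of the 5 members below 45% (Unc13b, Cacnb2, Snap25, Dmd and Rabggtb), none was lowest there and 3 were highest. Over the 30 genes the change between genotypes went with GC content at Spearman -0.38, beside -0.36 over all genes tested, and without triple-deficient 3 at -0.01 over the 30. With GC and length trends taken out of each library, the change of Elfn2 was -0.16 (limma unadjusted p = 0.00491, adjusted p = 0.567). In the same fit the change of Elfn1 was -0.09, that of Unc13b 0.02 and that of Slc17a7 0.006. The part of base composition in these changes was not tested further.

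**Figure D4:**
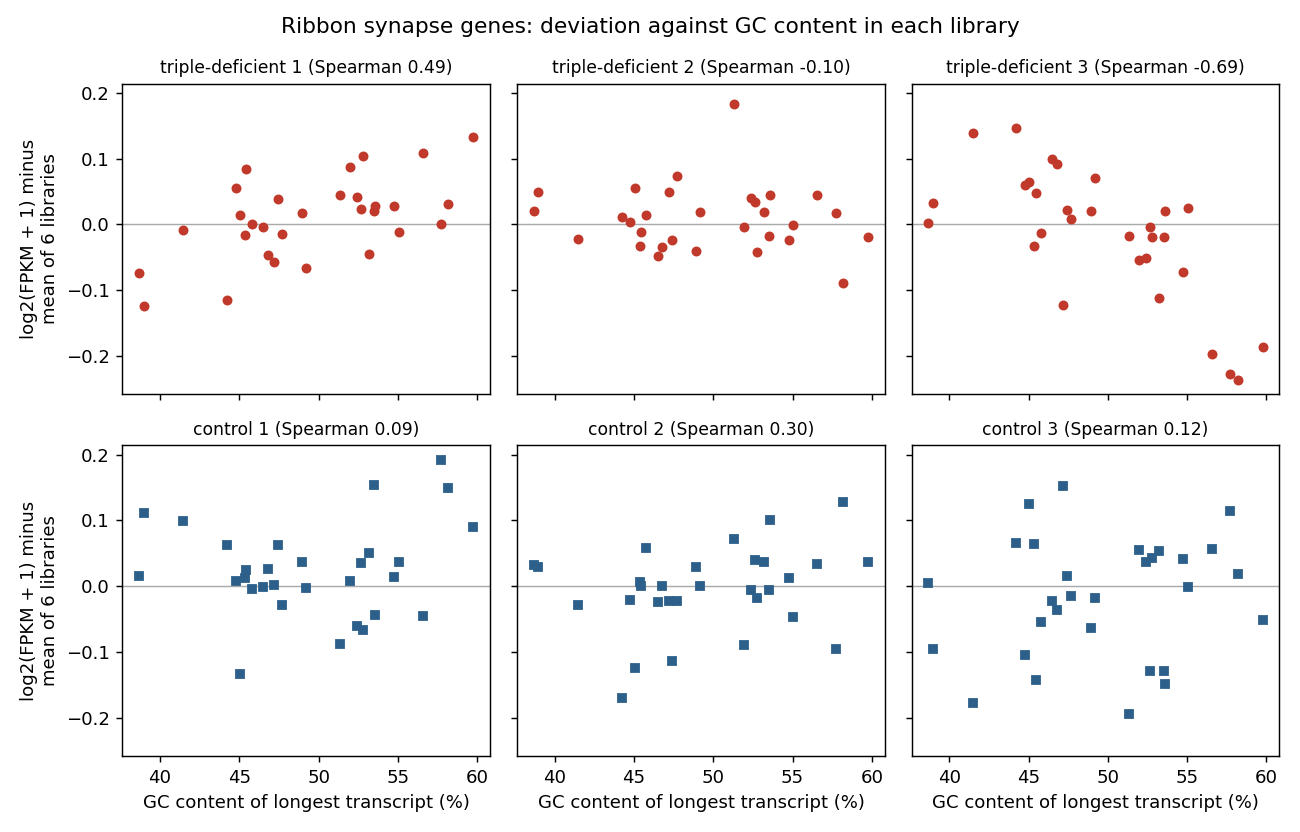
Deviation of each of the 30 genes from its mean over 6 libraries (log2(FPKM + 1), vertical) against the GC content of its longest transcript in percent (horizontal), 1 panel per library. The points slope down in triple-deficient 3 (Spearman -0.69) and up in triple-deficient 1 (0.49), with values of -0.10 to 0.30 in the other panels.

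Photoreceptor terminals rely on particular paralogs, so the share of each of 7 members in the summed FPKM of its family was compared. Slc17a7 held 93.4 ± 0.924% of the vesicular glutamate transporters in triple-deficient libraries and 93.9 ± 0.122% in controls (SD, n = 3), the rest being Slc17a6 and Slc17a8. Cacna1f held 80.0 ± 0.264% of the L-type pore subunits in triple-deficient and 79.4 ± 0.734% in control libraries, above Cacna1d, Cacna1c and Cacna1s.

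Unc13b was the only one of the 7 whose groups did not overlap. Its share of Munc13 transcripts was 65.2, 64.5 and 66.7% in triple-deficient libraries 1, 2 and 3, against 63.8, 63.5 and 63.7% in control libraries 1, 2 and 3. The difference of 1.79 percentage points gave p = 0.1 in an exact two-sided permutation test, the smallest that 3 against 3 libraries allow, and 0.7 after adjustment over the 7 families. Without triple-deficient 3 the difference was 1.19 percentage points. For the other 6 families the permutation p was 0.2 or more and the difference at most 0.837 percentage points in size. Unc13b has a GC content of 44.8% and Unc13a one of 55.1%, and the share of Unc13b was highest in triple-deficient 3; the part of base composition in it was not tested. Sv2b held 47.4 ± 1.85% in triple-deficient and 47.6 ± 0.534% in control libraries, beside Sv2a and Sv2c. Cplx3 held 37.3 ± 0.125% in triple-deficient and 37.3 ± 1.39% in control libraries, beside Cplx4, Cplx2 and Cplx1. Cacnb2 held 29.0 ± 1.68% in triple-deficient and 29.6 ± 1.76% in control libraries, below Cacnb3. Cacna2d4 held 50.8 ± 0.742% and 49.99 ± 0.375% of the alpha2delta subunits in the same order of groups.

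**Figure D5:**
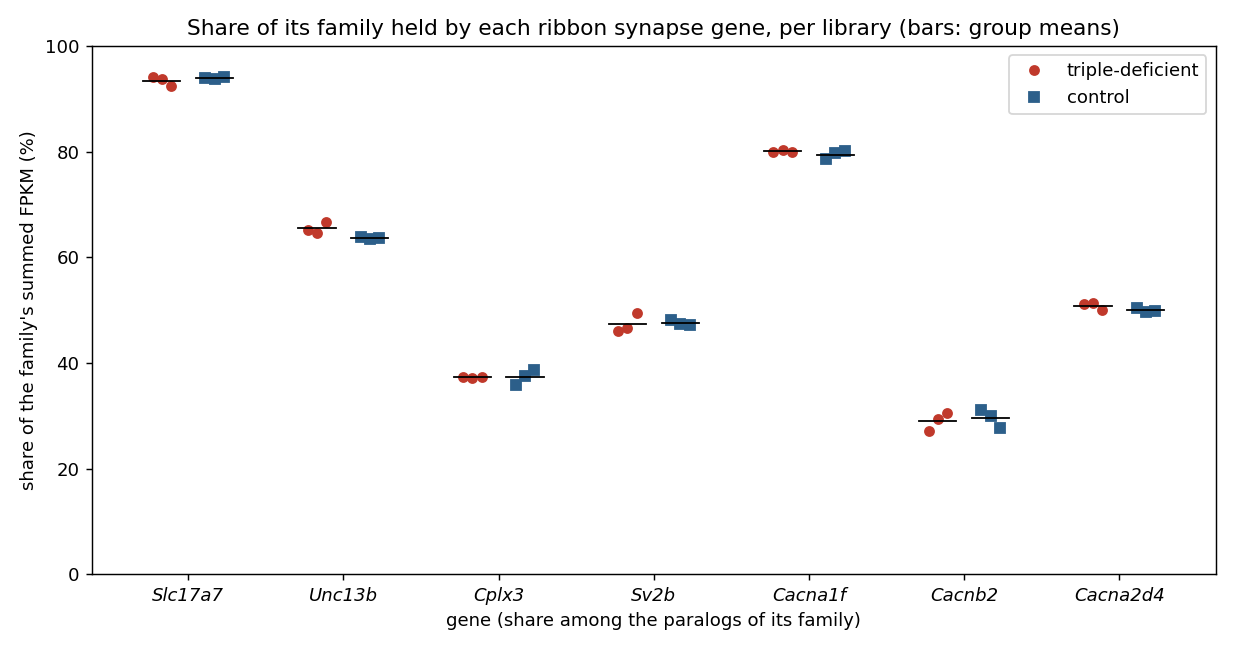
Share of each of 7 ribbon synapse genes in the summed FPKM of its family, in percent, for each triple-deficient (circles) and control library (squares), with bars at group means. Shares run from 27.2% for Cacnb2 to 94.1% for Slc17a7, both in triple-deficient 1, and the groups are apart only for Unc13b.

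A wider list of 66 other presynaptic genes, with conventional isoforms among them, gave no calls. Of these, 0 rose and 0 fell at the limma threshold, with a median change of 0.01 and changes from -0.19 to 0.14. At an unadjusted p below 0.05 there was 1, Syn1, which encodes a synapsin, a family that ribbon terminals lack. Syn1 stood at 54.2, 50.7 and 43.2 FPKM in triple-deficient libraries, against 54.96, 55.4 and 58.4 FPKM in controls (change -0.19, unadjusted p = 0.0419, limma adjusted p = 0.943). Its change was -0.10 without triple-deficient 3 (unadjusted p = 0.0856) and -0.14 with GC and length trends removed (unadjusted p = 0.0211, limma adjusted p = 0.759). Unc119, a photoreceptor protein that carries lipid-modified cargo, stood at 541, 534 and 472 FPKM in triple-deficient libraries and 561, 553 and 583 FPKM in controls. Its change of -0.14 was -0.07 without triple-deficient 3 and -0.05 with GC and length trends removed. Ppfia1, a liprin-alpha of the active zone, stood at 21.5, 20.6 and 21.6 FPKM in triple-deficient libraries, against 19.3, 19.9 and 19.9 FPKM in controls (change 0.10, limma adjusted p = 0.943). Syngr3, a synaptogyrin of vesicles, had a change of -0.11, and none of these passed.

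Of 12 genes listed for the mGluR6 cascade of ON bipolar cells, 0 passed, with a median change of -0.001 and intervals between -0.28 and 0.23. Not all of them belong to the bipolar side alone. Gnb3 is also among the cone markers, and Lrit3 is of the LRIT family, placed above on the photoreceptor side. Gpr179, the partner of pikachurin, stood at 35.4, 34.7 and 34.1 FPKM in triple-deficient libraries, against 30.4, 33.6 and 32.8 FPKM in controls (change 0.11, limma adjusted p = 0.943). Grm6, the gene of mGluR6 and partner of ELFN1, averaged 71.0 ± 7.16 FPKM in triple-deficient and 70.6 ± 2.65 FPKM in control libraries (SD, n = 3).

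The spread between libraries was small for most of the 30 genes. The coefficient of variation had a median of 4.09% among triple-deficient and 4.51% among control libraries, and was larger among triple-deficient libraries for 12 genes and among controls for 18. Levels placed the 30 genes between the 47.1th percentile of all genes tested, for Rimbp2, and the 99.8th, for Syp. The order from the top was Syp, Snap25, Vamp2, Slc17a7, Syt1, Stx3, Cplx3, Sv2b, Arl3 and Ctbp2, in means of the 6 libraries. Syt1 and Stx3 are separated by more than their spread, and Sv2b and Arl3 are not, since their ranges over the 6 libraries overlap. The 30 genes together took 1.03 to 1.05% of all FPKM in triple-deficient libraries and 1.04 to 1.05% in controls.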

How the data were processed

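RNA of whole retina was made into stranded mRNA libraries, per the labels' protocols, and the authors deposited 1 table of FPKM values per library. The submitters' processing notes name TopHat2 (2.1.1), Bowtie2 (2.3.5.1), Cufflinks (2.2.1), Cuffdiff and the build mm10, with no roles; the sources used here do not give the annotation or any rescaling. The deposited FPKM were used as they stand, and no counts were rebuilt. Depth was estimated from the spacing of values under 0.3 FPKM, where 61.1% to 64.1% of the ratios to control 1 matched a quotient of integers of at most 6 (log2 tolerance 0.005); in control 1, 272 genes with a single long transcript gave 22.6 M fragments.

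The 14325 genes averaging 0.5 FPKM or more were tested with limma 3.58.1 (R 4.3.3, mean-variance trend, two-sided) on log2(FPKM + 1), which understates changes of low genes, with Benjamini-Hochberg adjustment over all of them. Equal replicate numbers are not stated to mark littermates, so no block was used. Family shares used scipy 1.17.1; the share of Stx3 in its family is not reported here. GC content is that of a gene's longest transcript in GENCODE M21 (99.2% of genes tested); gene coordinates and promoters are RefSeq's for GRCm38.p6.

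Members and lists were chosen with earlier results of these data known. Named genes are the 30 members, the targeted genes, the family paralogs and the 4 other presynaptic genes with the smallest p; Gpr179, Grm6 and the cell type markers were named after their values were seen. Alternatives were other pseudocounts, filters, scalings, weights and models, the replicate block, removal of GC and length trends, and leaving out each library.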

Additional observations from a re-analysis of the deposited data

How the results depend on the processing

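The count of ribbon synapse genes past the threshold was 0 in the fit as reported and in each of 15 alternatives, with a smallest adjusted p of 0.434 (Elfn2, array quality weights), and so was the count of other presynaptic genes. Over all genes 4 passed, 2 with no filter and 3 to 11 when 1 library was left out (11 without triple-deficient 1 or triple-deficient 3, 8 without control 3). The median change of the 30 genes was 0.011, 0.025 under quantile normalization and -0.0039 to 0.021 without 1 library. With the replicate block, the counts were 4 over all genes and 0 members. Deviations of same-numbered libraries correlated at 0.02 to 0.11, and those of differently numbered libraries at -0.19 to 0.12. Not every library correlated best with its own number. These values cannot decide whether the libraries were paired. The numbers were not taken as pairs because they are not stated to mark littermates.

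No member was called, and 18 of 30 changed sign in some setting, at most 0.06 in size. Under quantile normalization Rims2 was at 0.0030 and Snap25 at 0.025; with array weights Erc2 at -0.0058, Sv2b at -0.028, Slc17a7 at 0.031 and Syt1 at -0.0037; with GC and length trends removed, with or without the block, Sv2b at -0.014, Slc17a7 at 0.0058, Syt1 at -0.022 and Dmd at -0.00057. Over the fits without 1 library, log2 changes ran as follows: Cacnb2 -0.084 to 0.026, Egflam -0.022 to 0.050, Dag1 -0.017 to 0.056, Rims2 -0.033 to 0.019, Syt1 -0.026 to 0.030, Ctbp2 -0.014 to 0.028, Bsn -0.127 to 0.032 and Erc2 -0.0097 to 0.064. For the others they were Sv2b -0.037 to 0.032, Slc17a7 -0.091 to 0.062, Stx3 -0.016 to 0.052, Rabggtb -0.050 to 0.092, Rimbp2 -0.079 to 0.062, Cplx3 -0.0052 to 0.050, Rims1 -0.026 to 0.062 and Cacna2d4 -0.020 to 0.065. Differences in share, in percentage points, ran over the same fits as vesicular glutamate transporter -0.83 to 0.0231, complexin -0.809 to 0.56, SV2 -1.26 to 0.462 and calcium channel beta -1.53 to 0.348. The cause of these turns was not tested.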
